A study of Mus musculus with 16 samples.

Results

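The 10 genes described here are immediate early genes: Fos, Fosb, Fosl2, Jun, Junb, Egr1, Egr2, Atf3, Ier2 and Ier3. They were chosen by symbol, and each was found once among the 36829 features measured in every mouse. Of the 10 genes, 8 passed a filter of a mean of at least 0.5 RPKM over all mice, and Fosb and Egr2 did not. RPKM scales a gene's read number to its length and to the depth of its library.

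RNA came from the cortical bone of the femur of 16 female C57Bl/6 mice, all 11 weeks old. The HLU group (8 mice) spent 7 days of hindlimb unloading in a tail harness, which lifts the hind limbs off the floor. The Control group (8 mice) bore weight normally. The bone ends were cut off and the marrow was flushed with saline, so the samples hold osteocytes with whatever cells remained after flushing. The question was which transcripts change when a loaded bone loses its load.

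Immediate early genes are transcribed within minutes of a stimulus, from promoters that kinases switch on through factors already in the nucleus, and their mRNAs decay fast. Fos, Jun and their relatives pair to form AP-1, EGR proteins are zinc finger activators, and ATF3 belongs to the same leucine zipper superfamily as AP-1. In bone cells, mechanical strain and parathyroid hormone are classical inducers of Fos, and mice that lack Fos form no osteoclasts. RNA levels read at a single time also depend on handling before freezing, which was not measured here.

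The promoters of 4 members are shown as examples. They are the 200 bases before the RefSeq start of each gene, read on the gene's strand in GRCm38.p6, the build of the sequence table; the RPKM values were made by the authors on mm9. Capitals mark every match, on either strand, to TGACG (the core of a cyclic AMP response element), TGACNTCA (its full form, which overlaps TGACG when N is G), TGANTCA (the AP-1 site), the CArG box of serum response factor, GCGNGGGCG (the EGR site), TATAAA and CCAAT.
Fos, chr12:85473690-85473889, plus strand: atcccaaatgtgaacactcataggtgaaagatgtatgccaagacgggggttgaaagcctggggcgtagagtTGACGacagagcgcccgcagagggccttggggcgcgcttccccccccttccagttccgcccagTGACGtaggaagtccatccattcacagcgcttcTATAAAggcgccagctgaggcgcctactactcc
Jun, chr4:95052223-95052422, minus strand: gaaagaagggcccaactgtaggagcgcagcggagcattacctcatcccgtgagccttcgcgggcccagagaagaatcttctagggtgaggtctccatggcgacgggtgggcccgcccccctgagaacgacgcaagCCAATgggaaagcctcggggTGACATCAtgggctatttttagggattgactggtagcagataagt
Junb, chr8:84978749-84978948, minus strand: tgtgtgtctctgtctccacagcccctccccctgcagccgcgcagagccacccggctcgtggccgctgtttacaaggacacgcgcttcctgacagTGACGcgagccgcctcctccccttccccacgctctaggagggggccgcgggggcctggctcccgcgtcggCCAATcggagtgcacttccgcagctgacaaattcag
Egr2, chr10:67537669-67537868, plus strand: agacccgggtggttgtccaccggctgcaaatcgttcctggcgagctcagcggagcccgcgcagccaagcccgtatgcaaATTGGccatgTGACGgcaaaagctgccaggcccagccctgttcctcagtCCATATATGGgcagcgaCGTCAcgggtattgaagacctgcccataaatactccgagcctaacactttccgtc

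RefSeq promoters were matched for 8 of the 10 members, all but Egr1 and Ier2. TGACG stood in a window of 5 of these 8 genes (Fos, Fosb, Junb, Egr2 and Atf3) and in 15.7% of 32505 promoter windows of the same length. A gene was counted if any of its windows matched, and Egr2 had 5 windows, so the count and the share differ in unit. Fos held 2 copies, 129 and 66 bases before the start, beside a TATAAA at 33 bases (9.88% of windows). Jun held TGACATCA at 45 bases, a match to TGACNTCA (6.56% of windows), and a CCAAT at 65 bases (29.3% of windows). With A at N, the match in Jun is not the full cyclic AMP response element. Egr2 held a CArG box 72 bases before this start (1.19% of windows), between 2 copies of TGACG, and 4 other starts are annotated for it. GCGNGGGCG stood in the windows of Fosb and Fosl2 (4.32% of windows), and TGANTCA in none of the 8 (5.47% of windows). A match is only a run of letters, and no match says only that these letters were not in this window.

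The reads of each library could be counted back from the RPKM values. The total by which a library's reads were divided ran from 7067512 (Control 2) to 21363584 (HLU 6), and HLU 5, with 7838277, was the other small library. Reads on listed features made up 76.3% to 93.2% of these totals, and mitochondrial genes took 6.08% to 19.1% of the listed reads. The osteoblast list of 7 markers summed to 789 to 1878 RPKM in Control and 929 to 2181 RPKM in HLU, and the osteocyte list of 6 markers to 179 to 589 and 263 to 598 RPKM. Markers of marrow cells were present as well: 7 of 11 granulocyte markers summed to 17544 to 37581 RPKM in Control and 12346 to 44250 RPKM in HLU. Elane, Mpo, Prtn3 and Cebpe of that list were not analysed here. Muscle markers were not analysed here.

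The members were modest in level. Fosl2 was the highest, with a mean of 14.97 RPKM over the 16 mice, above 80.8% of the features kept. Ier3 (5.51), Egr1 (3.39), Jun (2.96), Fos (2.63), Ier2 (2.31) and Atf3 (2.20 RPKM) followed, Junb was at 0.538 RPKM, and Egr2 (0.307 RPKM) and Fosb (0.291 RPKM) were lowest. Neighbours from Egr1 to Atf3 in this order lay within the spread between mice. These levels rest on the gene lengths behind the files, which were 0.601 to 2.31 times the exon length of GENCODE M21. Per base of M21 exon the order was Fosl2 (9.05 RPKM), Ier3 (5.51), Jun (4.68), Egr1 (4.63), Fos (4.24), Atf3 (2.45), Ier2 (2.31), Egr2 (0.710), Junb (0.423) and Fosb (0.175 RPKM), so only places within the middle and at the low end moved.

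**Figure D1:**
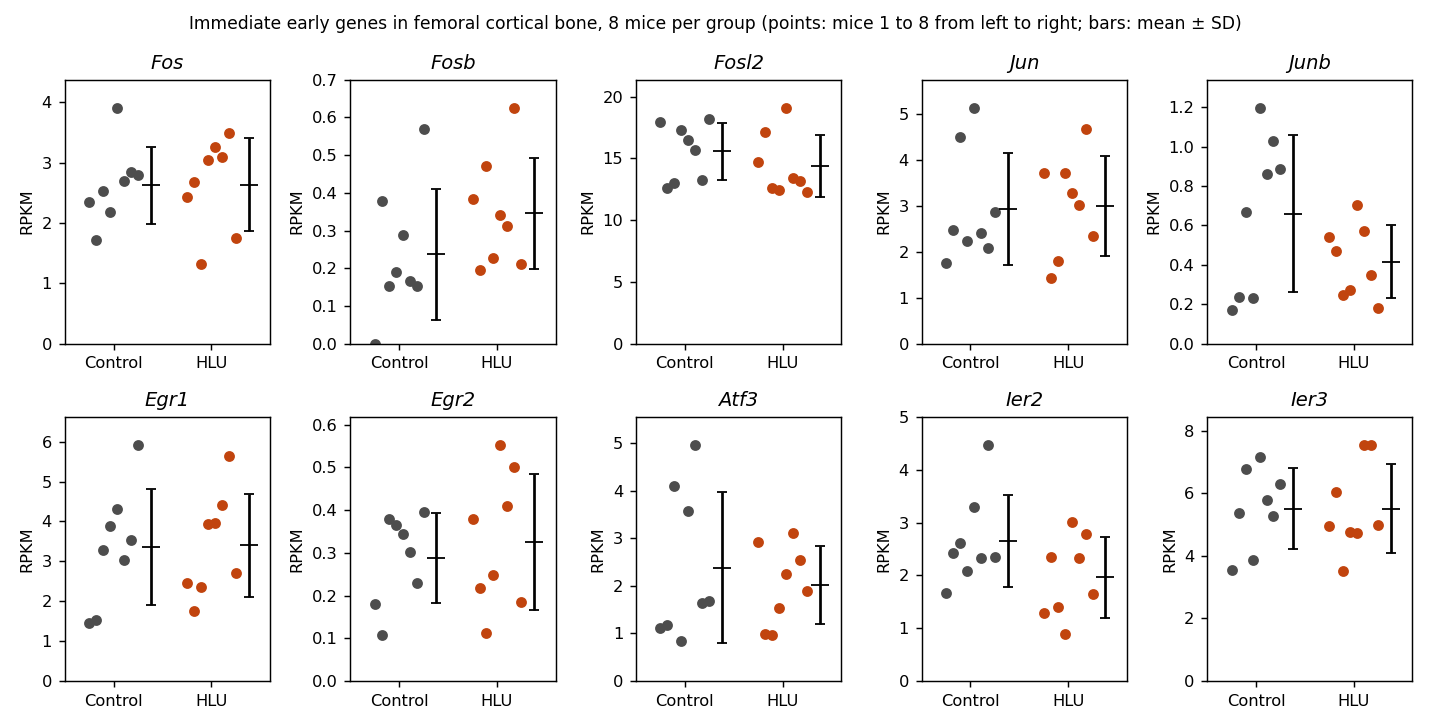
RPKM (y axis, from 0) of the 10 genes in each mouse, Control mice 1 to 8 and HLU mice 1 to 8 from left to right within each group, with the mean ± SD of the group as a bar. The 2 groups overlap for all 10 genes.

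No member passed a test of HLU against Control. In the fit of limma over 16973 features, 0 of the 8 members kept passed an unadjusted p under 0.05 with a 1.2-fold change, where 5.87% of all features did (188 features, 1.11%, higher and 808, 4.76%, lower in HLU). After median-of-ratios rescaling the split was 381 higher and 394 lower, and 0 members passed again. No feature at all passed an adjusted p under 0.1 with that change (0.0%), while 1049 features had an unadjusted p under 0.05 at any fold, and voom, a limma method for reads, called 1. RPKM of the groups overlapped for all 10 members, and 0.0295% of the features kept had groups that did not overlap. The median log2 fold change of the members kept was -0.05, beside -0.10 for all features.

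Fos, the founding partner of AP-1, was at 2.34, 1.72, 2.53, 2.17, 3.91, 2.70, 2.84 and 2.80 RPKM in Control 1 to 8. In HLU 1 to 8 it was at 2.42, 2.68, 1.31, 3.05, 3.26, 3.10, 3.50 and 1.75 RPKM. The means were 2.63 ± 0.637 and 2.63 ± 0.766 RPKM (SD, n = 8 each). The highest value was that of Control 5 and the lowest that of HLU 3, and the log2 fold change was -0.02 ± 0.20 (SE, 95% confidence interval -0.45 to 0.40, limma adjusted p = 0.978). Its sign turned positive after median-of-ratios rescaling (0.07), so no direction can be read. Between 46 and 274 reads lay behind each value of Fos.

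Fosb, a close relative of Fos, was the faintest member. Control 1 to 8 gave 0, 0.377, 0.152, 0.191, 0.288, 0.166, 0.154 and 0.570 RPKM, from 0 to 24 reads. HLU 1 to 8 gave 0.383, 0.195, 0.470, 0.228, 0.340, 0.312, 0.625 and 0.210 RPKM, from 10 to 41 reads. The 0 of Control 1 allows up to 0.0406 RPKM (3 reads, counting error only). All 8 HLU values lay above the Control median of 0.179 RPKM, but 7 of the 8 lay within the Control range. In the fit with no filter the log2 fold change was 0.52 ± 0.33 (interval -0.18 to 1.21, limma adjusted p = 0.820, exact permutation p = 0.135).

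Fosl2 encodes Fra-2, another relative of Fos, and had the narrowest spread of the 10. It was at 18.0, 12.6, 13.0, 17.3, 16.5, 15.7, 13.3 and 18.2 RPKM in Control 1 to 8 and at 14.7, 17.2, 12.6, 12.5, 19.1, 13.4, 13.2 and 12.3 RPKM in HLU 1 to 8. Within-group SD was 0.23 on the log2 scale, lower than that of all but 11.3% of the features kept. It changed in log2 by -0.12 ± 0.12 (interval -0.37 to 0.14, limma adjusted p = 0.799).

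Jun, the main partner of Fos, was at 1.76, 2.47, 4.50, 2.23, 5.13, 2.41, 2.08 and 2.87 RPKM in Control 1 to 8. The HLU mice were at 3.72, 1.43, 1.80, 3.72, 3.27, 3.02, 4.67 and 2.35 RPKM. Control 3, Control 5 and HLU 7 stood highest, above 4 RPKM, and HLU 2 lowest. HLU minus Control was 0.03 in log2 ± 0.26 (interval -0.51 to 0.57, limma adjusted p = 0.976). With the share of reads on listed features as a covariate, an alternative added after the data were seen, it was -0.34 (unadjusted p = 0.0372). An antisense gene, Junos, overlaps an exon of Jun, and the library kit did not keep strand, so reads on the shared stretch cannot be told apart.

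Junb, a weaker AP-1 partner, fell into lower and higher Control mice. Control 1, 2 and 4 were at 0.168, 0.235 and 0.231 RPKM, and the other 5 at 0.668, 1.196, 0.863, 1.03 and 0.888 RPKM. HLU 1 to 8 were at 0.540, 0.471, 0.244, 0.271, 0.706, 0.570, 0.348 and 0.182 RPKM, all below the Control median of 0.766 and none outside the Control range. HLU minus Control was -0.42 in log2 ± 0.38 (interval -1.22 to 0.38, limma adjusted p = 0.773). With erythroid and granulocyte scores as covariates the sign of Junb turned (0.04). These values came from 3 to 40 reads, so counting alone gives an SD of 0.47 on the log2 scale beside 0.75 between mice. Exons of Prdx2 on the other strand overlap those of Junb.

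Egr1, a zinc finger factor that answers serum and strain, was at 1.45, 1.52, 3.28, 3.88, 4.32, 3.03, 3.54 and 5.91 RPKM in Control 1 to 8. It was at 2.46, 1.77, 2.36, 3.94, 3.95, 4.42, 5.64 and 2.71 RPKM in HLU 1 to 8. Control 1 and Control 2 were the lowest of all 16 mice and Control 8 the highest. The log2 fold change of 0.06 ± 0.29 had an interval of -0.55 to 0.67 (limma adjusted p = 0.962). Egr2, a relative of Egr1, was at 0.181, 0.108, 0.379, 0.365, 0.344, 0.301, 0.228 and 0.397 RPKM in Control and 0.379, 0.217, 0.112, 0.249, 0.552, 0.411, 0.502 and 0.184 RPKM in HLU, from 6 to 69 reads. HLU 5, 6 and 7 lay above the whole Control range, HLU 3 near the bottom of that range, and the log2 fold change was 0.09 ± 0.27 (no filter, limma adjusted p = 0.941).

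Atf3, a stress-induced repressor, spread more than most features: its within-group SD of 0.78 in log2 was above that of 83.1% of those kept. Control 1 to 8 were at 1.10, 1.18, 4.10, 0.849, 3.57, 4.95, 1.63 and 1.68 RPKM and HLU 1 to 8 at 2.92, 0.992, 0.974, 1.53, 2.24, 3.11, 2.53 and 1.90 RPKM. Control 3, 5 and 6 stood at 3.57 RPKM or more, above every HLU mouse, and Control 4 below every HLU mouse. HLU minus Control was -0.08 in log2 ± 0.37 (interval -0.85 to 0.69, limma adjusted p = 0.959). It was -0.54 with the share of reads on listed features as a covariate (unadjusted p = 0.0768) and 0.09 with the erythroid and granulocyte scores.

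Ier2, a small nuclear protein induced with Fos, had the lowest p of the members kept. It was at 1.67, 2.42, 2.61, 2.08, 3.30, 2.34, 4.47 and 2.34 RPKM in Control 1 to 8 and at 1.28, 2.36, 1.41, 0.884, 3.02, 2.34, 2.78 and 1.64 RPKM in HLU 1 to 8. The means were 2.65 ± 0.867 and 1.96 ± 0.767 RPKM (SD, n = 8 each), and 4 of 8 HLU mice lay below the lowest Control mouse. The log2 fold change was -0.46 ± 0.24 (interval -0.97 to 0.06), with an unadjusted p of 0.0781 and an adjusted p of 0.744 in limma and 0.0932 by the exact permutation test. The smallest p that this exact test allows is 0.000155. Without Control 1, HLU 5 or HLU 7 the unadjusted limma p was 0.0440, 0.0356 or 0.0447, and adjusted p stayed between 0.470 and 0.976 over all alternatives. With erythroid and granulocyte scores as covariates the log2 fold change was -0.15. HLU minus Control was -0.555 in log2 for the erythroid score (exact permutation p = 0.0956) and -0.117 for the granulocyte score (exact permutation p = 0.628), neither past the threshold, and beyond this fit their part was not tested.

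Ier3, a survival factor induced by stress and growth signals, was at 3.54, 5.38, 6.78, 3.86, 7.17, 5.79, 5.27 and 6.30 RPKM in Control 1 to 8. HLU 1 to 8 were at 4.95, 6.03, 3.51, 4.76, 4.74, 7.53, 7.53 and 5.00 RPKM. HLU 6 and HLU 7 lay above the Control range, HLU 3 just below it, and the means were 5.51 ± 1.30 and 5.51 ± 1.42 RPKM (SD, n = 8 each). The log2 fold change was -0.00 ± 0.18 (interval -0.38 to 0.37, limma adjusted p = 0.994).

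**Figure D2:**
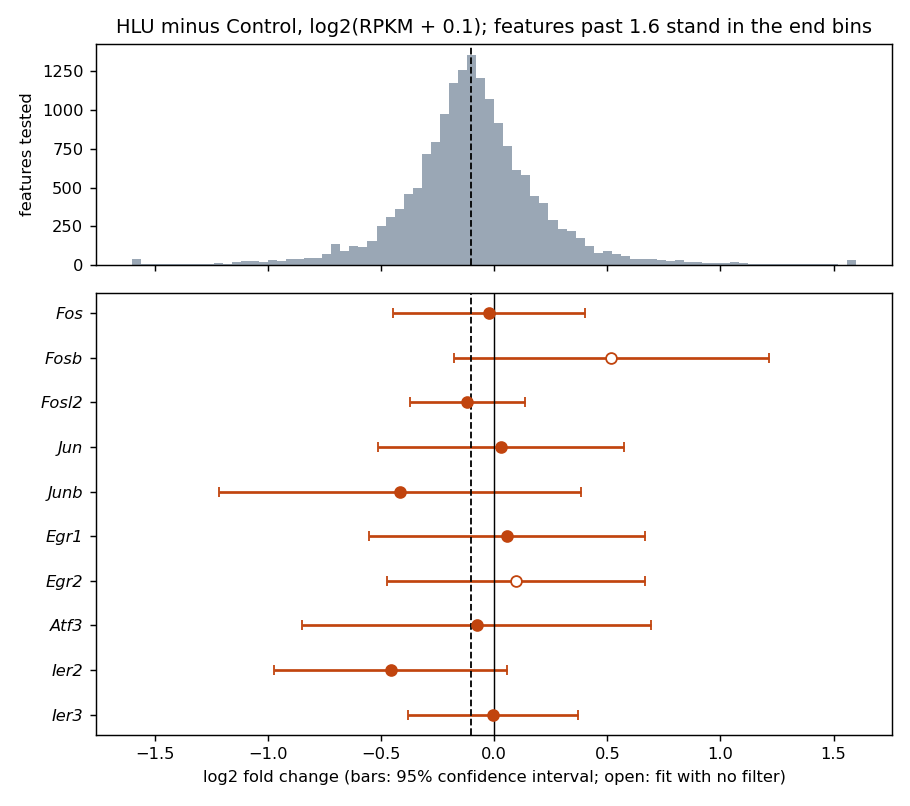
Upper panel, the number of features (y axis) at each log2 fold change, HLU minus Control, on log2(RPKM + 0.1). Lower panel, the same fold change for each member with its 95% confidence interval, open where the fit had no filter; the dashed line is the median of all features at -0.10. Every interval includes 0.

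Between mice of a group the members kept had SDs of 0.23 to 0.78 in log2, beside fold changes of at most 0.46 in size between groups, and the genes moved together from mouse to mouse. Each gene's log2(RPKM + 0.1) was centred on its group mean and correlated over the 16 mice. The 28 pairs of members kept had a median Pearson's r of 0.51, and 25 of the 28 were positive. For all pairs of the 16973 features the median was 0.038. Of the 28 pairs 15 (53.6%) had an r of at least 0.5, as had 16.9% of all pairs. The median was 0.53 in the Control mice alone and 0.47 in the HLU mice alone.

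In all, 165 relations were tested, the 45 pairs of the 10 members and 120 with measures of the libraries, each with 100000 permutations of mice within groups and one Benjamini-Hochberg adjustment over the 165. At adjusted p under 0.1 by Pearson's r, 14 of the 45 pairs passed. The share of all pairs of features that would pass was not computed. An r of at least 0.5 was reached by 22 of the 45 pairs (48.9%) and by 16.9% of all pairs of features. The members and their covariation were chosen for description with earlier results of these data known, so these p-values are not independent evidence.

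Fos was taken first. With Junb, r was 0.66 (permutation p = 0.00185, adjusted p = 0.0203) and Spearman's rho was 0.70 (permutation p = 0.00175, adjusted p = 0.0260). With Egr2, r was 0.76 (permutation p = 0.00125, adjusted p = 0.0172) and rho 0.65 (permutation p = 0.0120, adjusted p = 0.0736). With Egr1, r was 0.61 (permutation p = 0.0119, adjusted p = 0.0682) and rho 0.71 (permutation p = 0.00305, adjusted p = 0.0315). Leaving out the 2 mice farthest from the Fos median, these r were 0.64, 0.53 and 0.53. Fos and Jun, the classical AP-1 pair, had an r of 0.58 (permutation p = 0.0255, adjusted p = 0.102) and a rho of 0.59 (permutation p = 0.0235, adjusted p = 0.105), which misses the threshold.

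The 2 EGR genes moved together, with an r of 0.75 (permutation p = 0.00111, adjusted p = 0.0172) and a rho of 0.77 (permutation p = 0.00082, adjusted p = 0.0225), and an r of 0.64 without the 2 farthest mice. Jun and Atf3 had an r of 0.69 (permutation p = 0.00416, adjusted p = 0.0381) and a rho of 0.71 (permutation p = 0.00300, adjusted p = 0.0315), and an r of 0.60 without the 2 farthest mice. Atf3 and Ier3 had an r of 0.66 (permutation p = 0.00728, adjusted p = 0.0532) and a rho of 0.63 (permutation p = 0.00978, adjusted p = 0.0733), and an r of 0.68 without the 2 farthest mice.

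Fosl2 stood outside this pattern. Its r with the 7 other members kept ran from -0.16 (Jun) to 0.36 (Fos), with a median of 0.07, while the 21 pairs without Fosl2 had a median of 0.57 and were all positive. This contrast between pairs was not tested. Fosb was loosely tied as well, with r from -0.11 (Fosl2) to 0.52 (Egr1) and values of 0 to 41 reads.

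**Figure D3:**
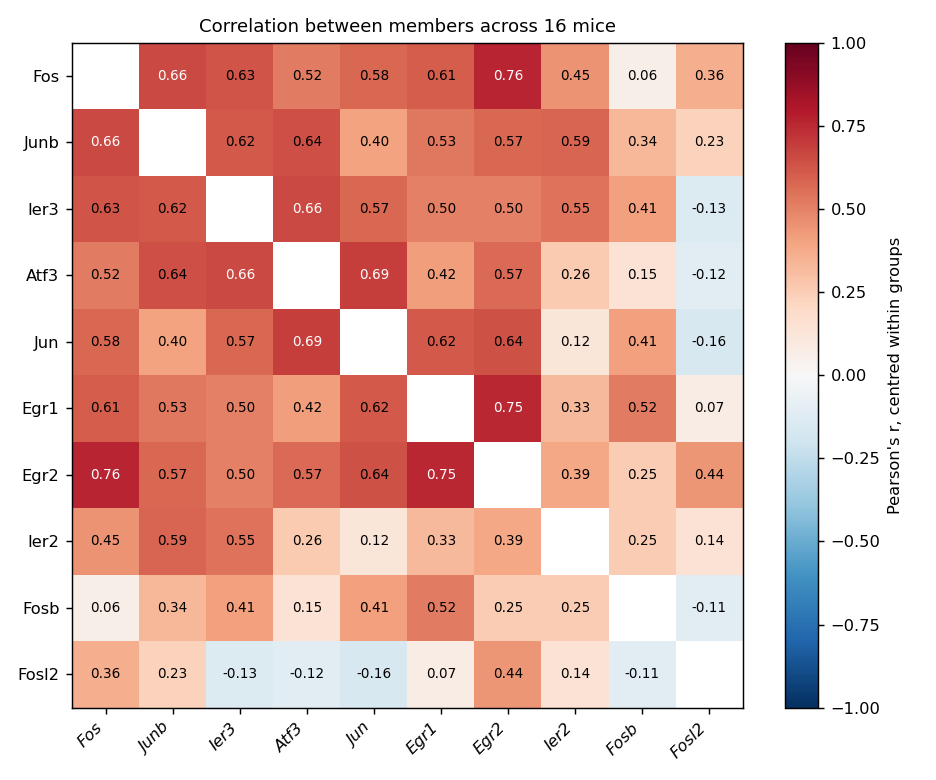
Pearson's r between every pair of members over 16 mice, each gene centred on its group mean, written in each cell (blue negative, red positive). Fosl2 and Fosb at the end have the palest cells, and Fos with Egr2 (0.76) and Egr1 with Egr2 (0.75) the darkest.

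The same mice were high or low for gene after gene. Control 5 was among the 3 highest of its group for 7 of the 8 members kept, and Control 8 and HLU 7 for 6 of 8. HLU 3 was among the 3 lowest of its group for 8 of 8, and Control 1 for 7 of 8. The share of all features that rank these mice alike was not computed, so these counts may not be particular to the members. The library totals of these mice were 15869536 (HLU 3) and 19708590 reads (Control 1, the largest of its group). Control 2, the smallest library, was among the 3 lowest for 5 of 8 members, while HLU 5, the next smallest, was among the 3 highest for 5 of 8. Without these 2 libraries the median r of the 28 pairs was 0.44.

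The members also moved with measures of the libraries and with markers of other cells. In bulk tissue, fewer cells of a type and less RNA per cell cannot be told apart. Marker scores are the mean, over a list, of log2(RPKM + 0.1) centred on each gene. With depth, the members kept had r from -0.20 (Ier2) to 0.20 (Fos).

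The adipocyte score (5 of 6 markers kept, among them Adipoq and Plin1; Lep was under the filter) rose with most members. Ier3 had an r of 0.85 with it (permutation p = 8.0e-05, adjusted p = 0.00440) and a rho of 0.75 (permutation p = 0.00168, adjusted p = 0.0260). Fos had an r of 0.77 (permutation p = 0.00041, adjusted p = 0.0135) and a rho of 0.78 (permutation p = 0.00074, adjusted p = 0.0225). Leaving out the 2 mice with the most distant scores, these r were 0.80 and 0.77. The score was between -0.98 and 0.75 in Control and between -0.86 and 0.87 in HLU (exact permutation p = 0.232 between groups). Of all features 41.7% had an r of 0.5 or more in size with this score, and 0.389% had an r as high as that of Ier3. With the adipocyte score regressed out, a step added after the data were seen, the median r of the 28 pairs was 0.087.

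The share of a library's reads that fell on listed features moved the other way. Jun had an r of -0.87 with this share (permutation p = 7.0e-05, adjusted p = 0.00440) and a rho of -0.87 (permutation p = 3.0e-05, adjusted p = 0.00385). Leaving out the 2 mice with the most distant shares gave an r of -0.92. Atf3 (r = -0.74, permutation p = 0.00065, adjusted p = 0.0172; rho = -0.81, permutation p = 0.00028, adjusted p = 0.0115) and Ier3 (r = -0.72, permutation p = 0.00322, adjusted p = 0.0313; rho = -0.72, permutation p = 0.0038, adjusted p = 0.0348) fell with it too. Without the 2 farthest mice r was -0.76 for Atf3 and -0.55 for Ier3. Of all features 46.1% had an r of 0.5 or more in size with the share, and 0.925% one as low as that of Jun. With the share regressed out, also added after the data were seen, the median r of the 28 pairs was 0.27. The share was 88.8% ± 4.28 in Control and 85.0% ± 5.29 in HLU (SD, n = 8 each, exact permutation p = 0.133).

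Granulocyte markers (7 of the 11 listed) went with low values of Jun, Egr1 and Egr2. Jun had an r of -0.85 with the granulocyte score (permutation p = 3.0e-05, adjusted p = 0.00440) and a rho of -0.86 (permutation p = 7.0e-05, adjusted p = 0.00385). Egr1 had an r of -0.70 (permutation p = 0.00089, adjusted p = 0.0172) and a rho of -0.70 (permutation p = 0.00357, adjusted p = 0.0346). Leaving out the 2 mice with the most distant scores, these r were -0.77 and -0.57. For Egr2, r was -0.69 (permutation p = 0.0072, adjusted p = 0.0532) and rho -0.67 (permutation p = 0.0118, adjusted p = 0.0736), and r was -0.67 without the 2 farthest mice. Of all features 40.6% had an r of 0.5 or more in size with this score, and 0.801%, 5.33% and 5.76% one as low as those of Jun, Egr1 and Egr2. With erythroid and granulocyte scores regressed out, the median r of the 28 pairs was 0.35.

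Egr1, Egr2 and Jun rose with the osteocyte score: r was 0.76 (permutation p = 0.00118, adjusted p = 0.0172) and rho 0.65 (permutation p = 0.0110, adjusted p = 0.0736) for Egr1. For Egr2, r was 0.78 (permutation p = 0.00032, adjusted p = 0.0132) and rho 0.85 (permutation p = 5.0e-05, adjusted p = 0.00385). For Jun, r was 0.66 (permutation p = 0.00785, adjusted p = 0.0533) and rho 0.60 (permutation p = 0.0194, adjusted p = 0.0987). Of all features 28.7% had an r of 0.5 or more in size with this score, and 1.81%, 1.28% and 5.97% one as high as those of Egr1, Egr2 and Jun. Fosl2 rose with the osteoclast score, with an r of 0.74 (permutation p = 0.00174, adjusted p = 0.0203) and a rho of 0.76 (permutation p = 0.00119, adjusted p = 0.0229). Egr2 rose with that score as well (r = 0.77, permutation p = 0.00109, adjusted p = 0.0172; rho = 0.73, permutation p = 0.00299, adjusted p = 0.0315). Fos passed by r alone (r = 0.63, permutation p = 0.0142, adjusted p = 0.0712; rho = 0.44, permutation p = 0.102, adjusted p = 0.243). Leaving out the 2 mice with the most distant scores, r was 0.57 for Egr1, 0.68 for Egr2 and 0.64 for Jun with the osteocyte score, and 0.74 for Fosl2, 0.68 for Egr2 and 0.50 for Fos with the osteoclast score. With the osteoclast score 7.67% of all features had an r of 0.5 or more in size, and 0.548% one as high as that of Fosl2. Differences between members in these r were not tested.

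Junb and Ier2 went with the endothelial score. Junb had an r of 0.65 (permutation p = 0.00073, adjusted p = 0.0172) and a rho of 0.71 (permutation p = 0.00125, adjusted p = 0.0229). For Ier2, r was 0.65 (permutation p = 0.0125, adjusted p = 0.0686) and rho 0.66 (permutation p = 0.0117, adjusted p = 0.0736). Without the 2 farthest mice these r were 0.61 and 0.64. The endothelial score was not the only one that Junb and Ier2 went with. Over 2 alternatives, r with the adipocyte score was 0.76 for Junb and 0.57 to 0.62 for Ier2. With the chondrocyte score it was 0.58 to 0.67 for Junb and 0.22 to 0.28 for Ier2. Of all features 23.0% had an r of 0.5 or more in size with this score, and 4.75% and 4.60% one as high as those of Junb and Ier2. The part of these cells in the members' levels was not tested.

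**Figure D4:**
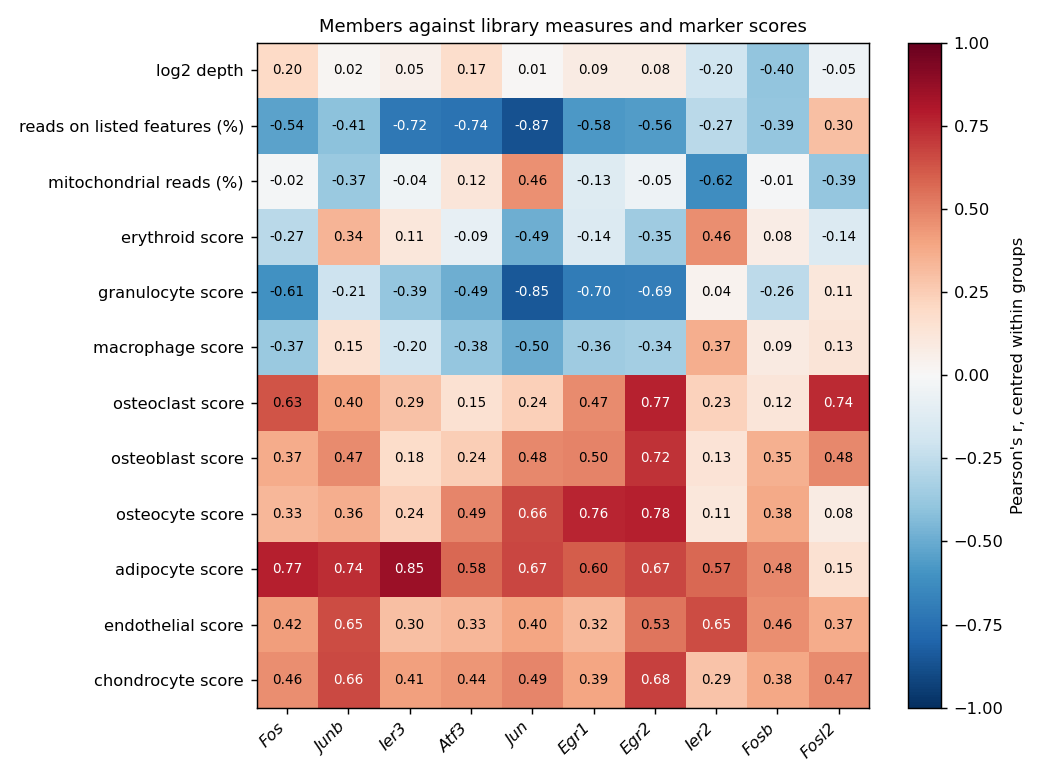
Pearson's r of each member (columns) with 12 measures of the libraries (rows) over 16 mice, centred within groups and written in each cell. The adipocyte row is positive for all 10 genes and strongest for Ier3 (0.85), and Jun has the lowest cells, with the share of reads on listed features (-0.87) and the granulocyte score (-0.85).

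**Figure D5:**
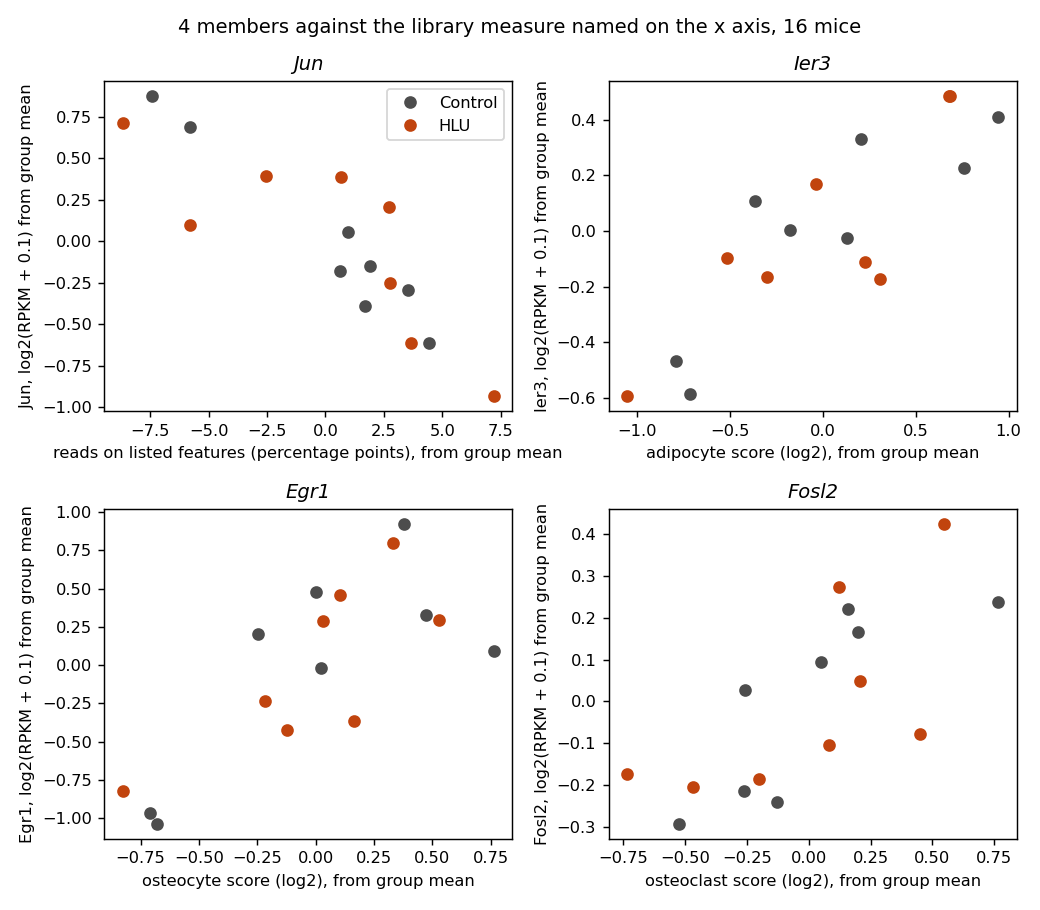
Each point is a mouse (grey Control, orange HLU), with log2(RPKM + 0.1) of a member on the y axis and a library measure on the x axis, both as differences from the group mean. Jun falls along the share of reads on listed features, and Ier3, Egr1 and Fosl2 rise along the adipocyte, osteocyte and osteoclast scores.

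The wider immediate early response was read from 104 companion genes in 6 lists, of which 89 were kept. Of these 2 were higher and 3 lower in HLU at an unadjusted p under 0.05 with a 1.2-fold change, 0 passed the adjusted threshold in limma, and the median log2 fold change was -0.06. Among all features 1.11% were higher and 4.76% lower at that limit. Median-of-ratios rescaling, quantile normalization and voom each gave 9 companion genes in place of 5. Of all 16973 features, median-of-ratios rescaling gave 381 higher and 394 lower, in place of 188 and 808. Quantile normalization gave 460 and 364, and voom 386 and 401.

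Among the AP-1 and ATF relatives (12 of 15 kept, 1 higher, 0 lower), Maf, a leucine zipper factor, had a median of 12.1 RPKM in Control (8.97 to 16.9) and of 17.2 RPKM in HLU (12.4 to 25.4). Its log2 fold change was 0.43 ± 0.16 (limma adjusted p = 0.744, exact permutation p = 0.0152), and all 8 HLU mice lay above the Control median. Atf4, the stress response factor, and Jdp2, a repressor that pairs with Jun, had log2 fold changes of -0.20 ± 0.13 (adjusted p = 0.750) and 0.06 ± 0.25 (adjusted p = 0.957). Of the EGR relatives and corepressors (2 of 4 kept, 0 in either direction), the corepressors Nab1 and Nab2 were at -0.15 ± 0.14 and -0.12 ± 0.27. Egr3 had a mean of 0.301 RPKM in Control and 0.311 RPKM in HLU and missed the filter.

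Among other inducible transcription factors (17 of 20 kept, 0 higher, 1 lower), Myc had a median of 4.32 RPKM in Control (3.46 to 5.99) and of 3.05 RPKM in HLU (2.13 to 4.62). The log2 fold change of Myc, a growth regulator, was -0.49 ± 0.16 (limma adjusted p = 0.744, exact permutation p = 0.0073), and its unadjusted p was under 0.05 in all 28 alternatives. Myc was named for its unadjusted p, and the alternatives reuse the same mice, so neither gives independent evidence of a change. Klf6, Bhlhe40, a repressor tied to the clock, and Irf1, an interferon response factor, were at 0.03 ± 0.14, 0.42 ± 0.21 and -0.17 ± 0.17, with adjusted p of 0.953, 0.744 and 0.786 in limma.

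The list of feedback and mRNA decay genes holds brakes on the response beside other inducible genes (29 of 29 kept, 1 higher, 2 lower). Dusp10, a phosphatase of stress-activated kinases, had medians of 4.04 RPKM in Control and 6.26 RPKM in HLU (log2 fold change 0.48 ± 0.20, limma adjusted p = 0.744, exact permutation p = 0.0317). Dusp5, a nuclear MAP kinase phosphatase, had medians of 1.38 and 1.06 RPKM (-0.44 ± 0.20, limma adjusted p = 0.744, exact permutation p = 0.0325). Btg2, an antiproliferative gene, had medians of 59.1 and 42.2 RPKM (-0.47 ± 0.19, limma adjusted p = 0.744, exact permutation p = 0.0357). Over the alternatives the unadjusted p was under 0.05 in 24 of 28 for Dusp10, 13 of 27 for Dusp5 and 24 of 28 for Btg2, as it was in 27 of 28 for Maf. These genes too were named for their unadjusted p, so such counts and the permutation p are not independent evidence. The share of all features that stay under 0.05 over the alternatives was not computed. Mcl1, a survival factor, and Nfkbia, the inhibitor of NF-kB, were at -0.15 ± 0.15 and -0.06 ± 0.13.

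No gene passed among the secreted and enzyme targets (12 of 17 kept) or the upstream factors and kinases (17 of 19 kept). Spp1, which encodes osteopontin, had a median of 378 RPKM in Control and 549 RPKM in HLU (log2 fold change 0.46 ± 0.25, limma adjusted p = 0.744). Mmp13, a collagenase with an AP-1 site in its promoter, was at 0.36 ± 0.26, and the matrix protein Thbs1 at -0.37 ± 0.19. The kinases Mapk14 and Mapk3 were at -0.10 ± 0.10 and -0.01 ± 0.23.

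Companion genes varied with the members in both directions. Against the mean of the members' standardised profiles, 33 of 89 (37.1%) had an r of at least 0.5 and 10 (11.2%) one of -0.5 or less, beside 22.7% and 19.2% of all features. Spry4 (0.88), Bhlhe40 (0.82), Hbegf (0.82), Dusp10 (0.81) and Atf5 (0.81) were the highest, and Mcl1 (-0.78), Creb1 (-0.76), Elk4 (-0.74) and Zfp36 (-0.69) the lowest, all named after their values were seen. Over the same mice the r of these genes with the share of reads on listed features was -0.84 to -0.68 for the 5 highest and 0.80 to 0.88 for the 4 lowest, and the part of the share was not tested. Spry4 is a brake on receptor tyrosine kinases, Hbegf an EGF receptor ligand, Creb1 and Elk4 are factors that act upstream of Fos, and Zfp36, which degrades unstable mRNAs, is itself an immediate early gene.

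Over the same 16 mice, the features most like the mean profile of the members kept were Blcap (r = 0.92), Lgi4 (0.92), Ntn1 (0.91), the pseudogene Rpl34-ps1 (0.91) and Cidec (0.91). Those most like Fos were B3gnt1 (0.88), Ldlrad4 (0.86), Gm22960 (0.86), Ntn1 (0.85) and Cidec (0.84). Cidec is one of the adipocyte markers, and reads on Rpl34-ps1 may be shared with other copies of that gene. These are the highest of 16973 values and carry no test.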

How the data were processed

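RNA from femoral cortical bone of 16 mice was sequenced by the authors from TruSeq v2 libraries on a HiSeq. The authors aligned reads with TopHat2 to mm9 and compared groups with DESeq2, per the labels' processing notes. The annotation, the gene lengths and the tool that counted reads are not given in the sources used here. The deposited RPKM values, 1 table for each mouse, were taken as RPKM from their steps, which fit whole reads over whole gene lengths; no source used here names the unit. RPKM corrects for gene length and library total only, so RNA composition can shift it. Whole reads, within 0.02 of a read, were recovered for 16973 of 16973 features kept (100% of them). Recovery was tested on simulated data (6000 of 6000 features).

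HLU was compared with Control by limma 3.58.1 in R 4.3.3 on log2(RPKM + 0.1), with a variance trend, over the 16973 features whose mean reached 0.5 RPKM, with Benjamini-Hochberg adjustment. On this scale changes of low genes are understated. Calls needed at least 1.2-fold with either p under 0.05 before adjustment or p under 0.1 after it. On simulated data limma recovered 124 of 200 genes changed 2-fold, 0 with the wrong sign, with 10 false calls. Two-sided exact permutation tests used all 12870 splits, and correlations 100000 permutations, run in numpy 2.4.6 and pandas 2.3.3 under Python 3.11.15. The correlations had been planned with an adjustment over each set; a single adjustment over 165 was used, so that none rests on the members alone.

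The members and gene lists were chosen with earlier results of these data known. Named companion genes were those at unadjusted p under 0.05 with 1.2-fold, the 3 of highest mean in each list (1 of these is not reported here), and, for likeness, the 5 highest r with Fos and with the mean profile. Spry4, Hbegf, Atf5, Creb1, Elk4 and Zfp36 were named outside this rule, after their values were seen. Of the 104 companion genes, 100 have a symbol of their own in the tables, 2 share theirs with another feature and 2 were not analysed here. Each library is 1 mouse, and p-values measure the spread between mice. Confidence intervals of fold changes come from the spread between mice, and the floor of 3 reads covers counting error only. Exon lengths came from GENCODE M21 (GRCm38); promoters from RefSeq (GRCm38.p6), with no promoter of 1 chromosome used. The alternatives were other pseudocounts, filters, scalings, a replicate block, covariates and each mouse left out.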

Additional observations from a re-analysis of the deposited data

Results flagged for a closer look

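HLU 5 had 7838277 reads as its library total, the lowest of the HLU mice, and the gap to the next library was 0.661 of the range of the group on the log2 scale. It was 1 of 44 groups of 8 values examined in this way, where chance marks about 1 in 20, and no group of a member's values was marked. The unadjusted p of Ier2 without HLU 5 was 0.0356.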

How the results depend on the processing

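Of the 28 alternatives, 16 left out 1 mouse each and 12 were of other kinds. Among these 12, the number of members kept at an unadjusted p under 0.05 was 0 with 3 exceptions. It was 1 (Ier2) with a replicate block and without the 2 smallest libraries. It was 2 (Ier2 and Jun) with the share of reads on listed features as covariate. With each mouse left out it ran from 0 to 1, and was 1 (Ier2) without Control 1, HLU 5 or HLU 7. The labels do not say whether the replicate numbers pair the mice. Same-numbered mice had correlations of -0.17 to 0.51 (3 of 8 above 0.1, median 0.045), beside a median of -0.0052 for other numbers. Of the 8 Control mice, 1 correlated best with its own number. Such correlations cannot decide whether same-numbered mice were handled together. With the replicate block 199 features were higher and 840 lower, and the median r of the 28 pairs was 0.42.

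Over all features (188 higher, 808 lower, 0 adjusted), the counts higher and lower were 381 and 394 after median-of-ratios rescaling, 460 and 364 after quantile normalization, 386 and 401 with voom, and 1062 and 1761 with the erythroid and granulocyte scores. Counts higher were 391 with no filter, 106 at a minimum mean of 2 RPKM and 108 without the 2 smallest libraries. Adjusted calls were 15 with those scores and 1 with no filter, no variance trend, voom or the share covariate. With each mouse left out, 117 to 363 were higher, 471 to 1385 lower and 0 to 1 adjusted; HLU 2 gave the highest of these counts and HLU 7 the lowest. Companion genes at an unadjusted p were 9 with either rescaling, with voom and without the 2 smallest libraries, 15 with the scores, and 4 to 11 with each mouse left out. The median-of-ratios factors moved the median log2 fold change of all features from -0.10 to -0.01, and quantile normalization moved it to 0.00.

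The median log2 fold change of the members kept was -0.29 with the share covariate and -0.13 to 0.06 with each mouse left out. The median r of the pairs was 0.39 after quantile normalization, 0.35 with both scores, 0.27 with the share and 0.087 with the adipocyte score regressed out, and 0.44 to 0.56 with each mouse left out; the causes were not tested.

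The sign of 7 of the 8 members kept turned under an alternative. After median-of-ratios rescaling, quantile normalization and voom, log2 fold changes were 0.0679, 0.0675 and 0.0409 for Fos, 0.0116, 0.00765 and 0.00807 for Atf3, and 0.0868, 0.0991 and 0.118 for Ier3, and Fosl2 was at 0.0101 after quantile normalization. With the scores as covariates Jun was at -0.0179, Junb at 0.0373, Atf3 at 0.0877 and Ier3 at 0.145. With the share covariate Jun was at -0.34 and Egr1 at -0.23, and Atf3 moved from -0.08 to -0.54 (unadjusted p = 0.0768). Without the 2 smallest libraries Jun was at -0.0195, Egr1 at -0.123 and Ier3 at 0.0201. With each mouse left out the ranges were -0.101 to 0.105 for Fos, -0.0700 to 0.165 for Jun, -0.0907 to 0.189 for Egr1, -0.239 to 0.105 for Atf3 and -0.0886 to 0.0800 for Ier3. Among the pairs that turned negative were Fos and Ier3 (-0.0857) and Junb and Ier3 (-0.0341) without the adipocyte score. So did Jun and Egr1 (-0.12) without both scores, and Jun and Ier3 (-0.16) without the share. The lowest r over the alternatives was also negative for Jun with Ier2 (-0.43) and Junb (-0.18). It was negative for Egr1 with Atf3 (-0.18), Ier3 (-0.033) and Ier2 (-0.031), and for Atf3 with Ier2 (-0.13). Fosl2 reached -0.10 with Junb, -0.25 with Egr1 and -0.52 with Ier2. Depth limits Fosb, Junb and Egr2 most.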
